A study of Mus musculus with 6 samples.

Results

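Fibronectin (Fn1), the tenascins Tnc, Tnn, Tnr and Tnxb, periostin (Postn) and Tgfbi were followed in osteoblasts and chondrocytes of newborn mice. The genes were taken by symbol from a table of RPKM, a read count divided by the length of the transcript and by the depth of the library, and all 7 were found among 23364 gene symbols. They held 15 of its 31055 RefSeq transcripts: 7 of Fn1, 3 of Postn and 1 of each other gene. The osteoblast group was 3 libraries of cells released from the calvaria, the skull roof, and sorted on GFP, with the genotype given as Sp7 positive and the name Sp7-GFP. The chondrocyte group was 3 libraries of wild-type rib cartilage cells that carry no mention of sorting. All 6 came from C57BL/6 mice at postnatal day 1 and were made from total RNA. Liberase TM released the osteoblasts, and pronase with collagenase D the chondrocytes. Skeletal site, sort, genotype and digestion enzyme go with the cell type and cannot be told apart from it. The labels name no animals or pools, so p-values measure only the spread between these libraries.

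These proteins are secreted and shape the matrix around cells without being its main load-bearing fibres. Fibronectin is a large dimer that integrins on the cell surface pull into fibrils, on which collagen and other proteins then assemble. Tenascins are multi-armed glycoproteins that modulate how cells grip fibronectin. Tenascin-C (Tnc) is made in developing bone, perichondrium and tendon, tenascin-W (Tnn) is best known from periosteum and bone, tenascin-R (Tnr) from the central nervous system and tenascin-X (Tnxb) from loose connective tissue. Periostin and Tgfbi are relatives built from fasciclin domains. Periostin was first isolated from an osteoblast line and is a marker of periosteum, where it binds collagen, fibronectin and tenascin-C.

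The labelled cell types carried their defining markers. Sp7 stood at 108 to 134 RPKM in the osteoblast libraries and 0.911 to 2.31 RPKM in the chondrocyte libraries, and Col2a1, the collagen of cartilage, at 23.7 to 35.5 and 26727 to 48028 RPKM. The osteoblasts were sorted on GFP under the name Sp7-GFP, so their Sp7 level is no independent sign of the cell type. Mean levels of other osteoblast markers were 707 RPKM in osteoblasts against 1.33 in chondrocytes for Ibsp. They were 255 against 2.70 RPKM for Alpl and 35.8 against 9.26 RPKM for Runx2. By the step size of low values each library rested on an estimated 26880000 to 35840000 reads. Chondrocyte replicate 3 stood apart from chondrocyte replicates 1 and 2. Its 8 chondrocyte markers summed to 0.639 times their mean in the other 2 chondrocyte libraries, and its 12 tendon and fibroblast markers to 3.31 times. These sums were mostly Col2a1 and Col3a1. Of 8 osteoblast markers, Col1a1 alone was highest among chondrocyte libraries in replicate 3. Results that rest on this library are given with and without it.

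The genes divided by cell type. Tnc and Tnn were higher in osteoblasts, Fn1 was higher in chondrocytes, Postn and Tgfbi were abundant in both without passing the test, and Tnr and Tnxb were under 1 RPKM everywhere. In osteoblasts the order of mean levels was Postn (676 RPKM), Tnn (595), Tnc (355), Fn1 (319), Tgfbi (76.4), Tnxb (0.302) and Tnr (0.0173). The libraries of Postn and Tnn overlapped, as did those of Tnc and Fn1, while the other neighbours did not. In chondrocytes the order was Fn1 (1320 RPKM), Postn (1303), Tgfbi (114), Tnn (96.2), Tnc (69.1), Tnxb (0.197) and Tnr (0.00182). There Fn1 overlapped Postn, Tgfbi overlapped Tnn and Tnn overlapped Tnc. Together the 7 genes took 0.545% to 0.726% of all RPKM in osteoblast libraries and 0.832% to 1.36% in chondrocyte libraries. Bulk RNA cannot tell fewer cells of a type from less RNA per cell.

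**Figure D1:**
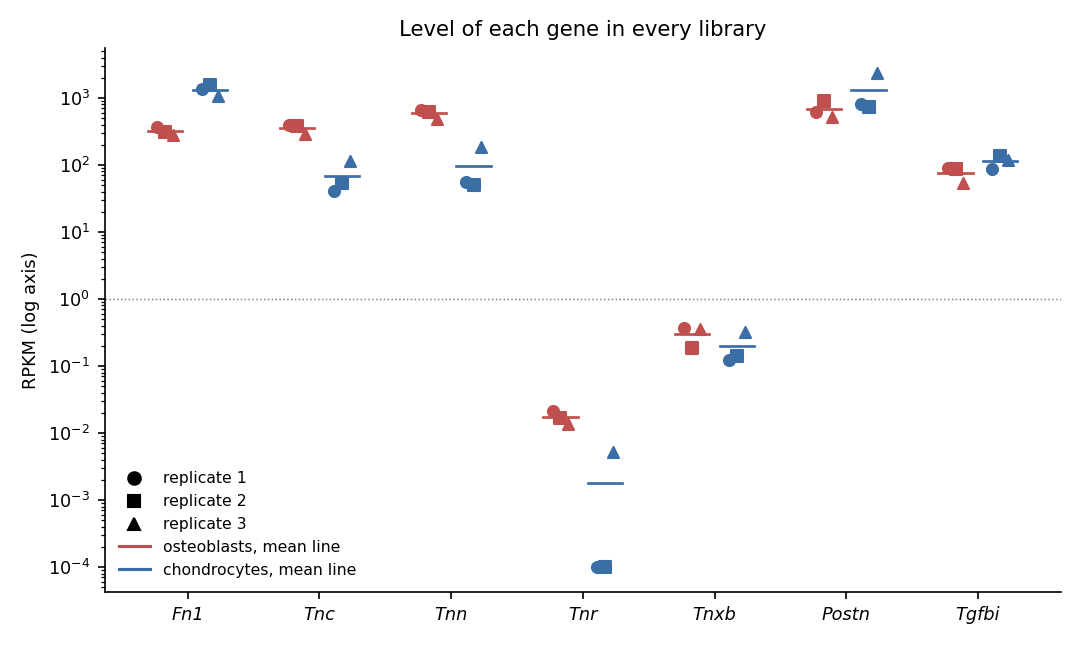
RPKM (log axis) of the 7 genes in each library, osteoblasts in red and chondrocytes in blue, symbols giving the replicate and short lines the group mean; the dotted line is 1 RPKM. Tnc and Tnn lie higher in red, Fn1 higher in blue, and Postn and Tgfbi overlap. Chondrocyte replicate 3 is the highest chondrocyte library for Tnc, Tnn and Postn, and for the low Tnxb and Tnr.

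Differences were tested with limma on log2(RPKM + 1) across 11218 genes with at least 1 RPKM in at least 3 libraries, with calls made at 0.05 after Benjamini-Hochberg adjustment. Of the 7 genes 5 entered the test and 3 were called: 2 higher in osteoblasts and 1 higher in chondrocytes. Over all genes tested 69.0% were called, 55.5% as higher in osteoblasts and 13.5% as higher in chondrocytes, so 3 of 5 is no more than the background. As deposited, the median log2 difference over all tested genes, osteoblast minus chondrocyte, was 0.43, and median-of-ratios scaling brought it to 0.01. Under that scaling 3405 genes were called higher in osteoblasts and 3478 in chondrocytes, against 6224 and 1512 as deposited. The directions of Fn1, Tnc, Tnn, Postn and Tgfbi were the same under all 3 scalings tried.

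Fn1 was the most abundant of the 7 genes in chondrocytes on average. Its 7 transcripts lie on the minus strand within chr1:71585520-71653200 of GRCm38. They summed to 367, 311 and 278 RPKM in osteoblast replicates 1 to 3 and to 1360, 1542 and 1057 RPKM in chondrocyte replicates 1 to 3. The groups did not overlap, and chondrocyte replicate 3 was the lowest of its group. The chondrocyte mean was 4.14-fold higher, at 1320 ± 245 against 319 ± 45.0 RPKM (SD, n = 3 each). The log2 difference was -2.04 ± 0.18 (SE), with a Benjamini-Hochberg adjusted p of 6.23e-05 (limma). Without chondrocyte replicate 3 it was -2.19.

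Fibronectin RNA is spliced at 3 places. The extra domain exons EDB and EDA each code for a further fibronectin type III repeat and are kept or skipped whole, and the variable exon (V) is cut to different lengths from its 5′ side. EDA and EDB are known from embryonic and wound fibronectin, and the first stretch of V holds the CS1 site that integrin α4β1 binds. The stretches that separate the 7 transcripts are shown because the isoform results turn on them. They were read from the GENCODE M21 transcript that matches NM_010233, whose build is GRCm38 whereas the deposited values were made on mm9. Capitals mark the alternative stretch and lower case the 10 bases on either side in the RNA.
EDB exon, exon 25 of NM_010233, 273 bases, chr1:71613763-71614035, minus strand: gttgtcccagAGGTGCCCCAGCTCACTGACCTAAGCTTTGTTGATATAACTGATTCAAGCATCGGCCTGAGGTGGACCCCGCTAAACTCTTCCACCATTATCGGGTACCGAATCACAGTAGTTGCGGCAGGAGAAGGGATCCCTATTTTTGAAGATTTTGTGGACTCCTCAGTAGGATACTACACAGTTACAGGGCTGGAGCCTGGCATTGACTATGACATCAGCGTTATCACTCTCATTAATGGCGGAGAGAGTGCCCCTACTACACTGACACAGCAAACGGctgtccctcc
EDA exon, exon 33, 270 bases, chr1:71603660-71603929, minus strand: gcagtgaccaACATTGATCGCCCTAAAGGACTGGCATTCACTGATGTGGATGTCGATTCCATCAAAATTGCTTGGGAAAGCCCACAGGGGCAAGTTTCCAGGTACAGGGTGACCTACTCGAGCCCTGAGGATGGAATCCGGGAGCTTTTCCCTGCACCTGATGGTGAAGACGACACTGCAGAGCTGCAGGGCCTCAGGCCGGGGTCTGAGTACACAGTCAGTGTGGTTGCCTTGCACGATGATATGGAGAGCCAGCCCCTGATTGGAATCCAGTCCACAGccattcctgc
First stretch of V, exon 40, 75 bases, chr1:71597673-71597747, minus strand: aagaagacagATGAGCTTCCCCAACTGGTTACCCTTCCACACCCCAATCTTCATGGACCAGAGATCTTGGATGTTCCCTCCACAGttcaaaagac

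NM_010233 was the 1 listed Fn1 transcript with EDB, and it also holds EDA. NM_001276408, NM_001276409 and NM_001276412 hold EDA without EDB, and NM_001276410, NM_001276411 and NM_001276413 hold neither. No listed transcript has EDB without EDA, so such an RNA has no line of its own in the table. The V exon carries 360 alternative bases in NM_010233, NM_001276408 and NM_001276410, 285 in NM_001276409 and NM_001276411, which lack the 75 bases shown, and none in NM_001276412 and NM_001276413. The way reads were divided among these transcripts is not given in the sources.

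Fn1 transcripts with EDA and without EDB held a far smaller share in chondrocytes. These 3 transcripts made up 15.8%, 14.3% and 15.1% of Fn1 RPKM in the osteoblast libraries and 1.40%, 1.60% and 1.55% in the chondrocyte libraries. The osteoblast share was 9.94-fold higher, at 15.1% ± 0.728 against 1.52% ± 0.104 (SD, n = 3 each). Their summed level was also higher in osteoblasts, at 57.9, 44.6 and 42.1 RPKM against 19.1, 24.8 and 16.4, although total Fn1 was higher in chondrocytes. Among transcripts without EDB, those with EDA held 23.8% ± 0.743 in osteoblasts and 2.23% ± 0.120 in chondrocytes. Each of these shares separated the groups without overlap, and the exact permutation test (two-sided) gave p = 0.10, the smallest that 3 against 3 allows.

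The EDB transcript differed less. NM_010233 held 36.0%, 38.5% and 35.4% of Fn1 RPKM in osteoblasts and 33.6%, 28.2% and 34.3% in chondrocytes. The means were 36.7% ± 1.63 and 32.0% ± 3.36 (SD, n = 3 each), with no overlap and a gap of 4.63 percentage points (exact permutation p = 0.10). Without chondrocyte replicate 2 the gap was 2.70 points. All transcripts listed with EDA together, NM_010233 included, held 51.7% ± 1.13 in osteoblasts and 33.5% ± 3.29 in chondrocytes. In chondrocytes nearly all of this share was NM_010233. An RNA with EDB and without EDA has no line of its own. How much of the NM_010233 share truly holds EDA therefore cannot be read from these values.

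V was also shorter in chondrocyte Fn1. Transcripts with the full 360 bases held 78.0%, 79.1% and 77.9% of Fn1 RPKM in osteoblasts and 64.4%, 63.1% and 65.4% in chondrocytes. Those with 285 bases held 15.8% ± 0.579 against 23.9% ± 0.281, and those with none 5.85% ± 0.699 against 11.8% ± 0.925 (SD, n = 3 each). The difference was present among transcripts with neither extra domain, where the full V held 65.7% ± 0.272 in osteoblasts and 47.4% ± 1.07 in chondrocytes. In RPKM the largest fold between cell types among the 7 transcripts was that of NM_001276413, with neither extra domain and no V bases, at 15.3, 12.9 and 14.3 against 154, 194 and 114 RPKM.

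A test of transcript shares, added after the table was seen to list transcripts, put these shifts on one scale. It fitted limma to the log2 ratio of a transcript to the other transcripts of its gene, over 3051 transcripts of genes with at least 5 RPKM in every library and a mean share of at least 2%. Of all these 25.0% were called. NM_001276408 (3.74 ± 0.18 SE, limma with Benjamini-Hochberg adjusted p = 2.56e-06) and NM_001276409 (2.77, adjusted p = 8.71e-06) had higher shares in osteoblasts. NM_001276413 (-1.39, adjusted p = 0.000624) and NM_001276411 (-1.13, adjusted p = 0.00106) had higher shares in chondrocytes. NM_001276410 (adjusted p = 0.934) and NM_010233 (0.250) were not called, and NM_001276412 fell under the limit on mean share. NM_001276408 and NM_001276409 reached the mean share of 2% through the osteoblast libraries alone, so their entry into the test already rested on a higher osteoblast share. Shares of one gene sum to 100%, so these calls are not independent of each other. The calls of these 4 transcripts were kept under all 10 alternatives tried for this fit, with adjusted p up to 0.00689.

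**Figure D2:**
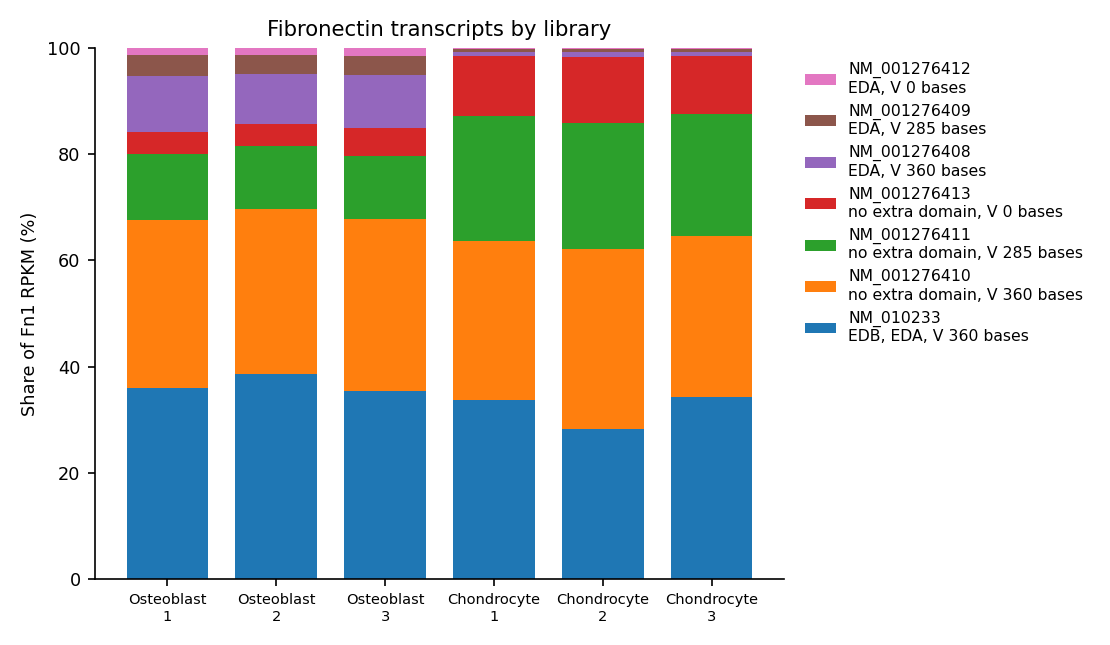
Share of Fn1 RPKM (%) held by each of its 7 transcripts in each library; colours give the transcript with its extra domains and the number of alternative V bases. The 3 upper segments, with EDA and no EDB, hold 14.3% to 15.8% in osteoblasts and 1.40% to 1.60% in chondrocytes.

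Of the tenascins, Tnn differed most. It stood at 669, 627 and 488 RPKM in osteoblast replicates 1 to 3 and at 55.3, 50.2 and 183 RPKM in chondrocyte replicates 1 to 3. The groups did not overlap, and chondrocyte replicate 3 was far above chondrocyte replicates 1 and 2. The osteoblast mean was 6.18-fold higher, at 595 ± 95.0 against 96.2 ± 75.4 RPKM (SD, n = 3 each), and 11.3-fold higher without chondrocyte replicate 3. The log2 difference was 2.87 ± 0.46 (SE, limma with Benjamini-Hochberg adjusted p = 0.00122), and 3.46 without that library. Tnn, listed as NM_177839, spans chr1:160085029-160153580 on the minus strand of GRCm38 with 22 exons.

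Tnc followed a like pattern at lower levels. It stood at 393, 382 and 289 RPKM in osteoblasts and at 41.1, 53.2 and 113 RPKM in chondrocytes, again with replicate 3 highest and with no overlap. The osteoblast mean was 5.13-fold higher, at 355 ± 56.9 against 69.1 ± 38.5 RPKM, and 7.52-fold higher without chondrocyte replicate 3. The log2 difference was 2.46 ± 0.35 (SE, limma with Benjamini-Hochberg adjusted p = 0.000654), and 2.88 without that library. Tnc is listed as 1 transcript, NM_011607, with 26 exons on the minus strand at chr4:63959785-64047015 of GRCm38. Its alternatively spliced repeats therefore cannot be read from the table.

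Per length, Tnn RNA exceeded Tnc RNA by nearly the same ratio in each osteoblast library, 1.70, 1.64 and 1.69. The ratio was 1.35, 0.945 and 1.62 in the chondrocyte libraries, so Tnc was the higher of the pair in chondrocyte replicate 2. Fn1 over Tnc was 0.934, 0.815 and 0.961 in osteoblasts and 33.1, 29.0 and 9.36 in chondrocytes. The balance of fibronectin RNA to tenascin-C RNA was thus near even in each osteoblast library and tilted to fibronectin in each chondrocyte library, least in replicate 3.

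The other tenascins were low, and Tnr stood at a few reads or none. Tnxb stood at 0.367, 0.186 and 0.352 RPKM in osteoblasts and 0.121, 0.143 and 0.326 RPKM in chondrocytes, an estimated 38.1 to 119 reads a library, and the groups overlapped. Tnr stood at 0.0215, 0.0166 and 0.0138 RPKM in osteoblasts, an estimated 9.00, 6.74 and 4.50 reads. In chondrocytes it was listed at the floor of 0.0001 RPKM in replicates 1 and 2 and at 0.00526 RPKM, an estimated 2.26 reads, in replicate 3. The Tnr estimates rise in steps near 2.26 and not in whole reads. The length used, 12202 bases, is thus likely longer than the one behind the deposited values, and true reads would be fewer. A library with no reads allows up to 3. At the length used this is 0.00686 to 0.00915 RPKM over the 6 libraries, and at a shorter one it would be more. For Tnr the difference is therefore one of a few reads. Neither gene passed the filter. In a fit of 17936 genes without a filter Tnxb and Tnr were not called (limma, Benjamini-Hochberg adjusted p = 0.271 and 0.144). Glial and neural markers summed to 7.79 to 9.93 RPKM in osteoblasts and 1.45 to 3.65 RPKM in chondrocytes, with 3 of 6 under 1 RPKM in every library, and their part in Tnr was not tested.

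Postn was among the most abundant of the 7 genes in both cell types. It lies at chr3:54361109-54391037 on the plus strand of GRCm38. Its transcripts summed to 617, 899 and 513 RPKM in osteoblasts and to 802, 738 and 2369 RPKM in chondrocytes. Osteoblast replicate 2 lay above chondrocyte replicates 1 and 2, and chondrocyte replicate 3 was 3.08 times their mean. The means were 676 ± 200 and 1303 ± 924 RPKM (SD, n = 3 each), and the log2 difference of -0.77 ± 0.45 (SE) was not called (limma, Benjamini-Hochberg adjusted p = 0.165). Without chondrocyte replicate 3 it was -0.23 (adjusted p = 0.416). Under median-of-ratios scaling it was -1.28 and was called higher in chondrocytes (adjusted p = 0.0360).

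The periostin transcripts separated the cell types where the sum did not. The C-terminal part of periostin RNA is alternatively spliced, and the 3 listed transcripts differ inside the gene by 2 exons. Both are shown because the largest transcript shift of the comparison turns on them. They were read from the GENCODE M21 transcripts that match NM_001198765 and NM_015784, with capitals for the exon, lower case for 10 bases on either side in the RNA, and GRCm38 positions. Each is a multiple of 3 bases long.
Upstream exon, exon 17 of NM_001198765, 81 bases, chr3:54380412-54380492, plus strand: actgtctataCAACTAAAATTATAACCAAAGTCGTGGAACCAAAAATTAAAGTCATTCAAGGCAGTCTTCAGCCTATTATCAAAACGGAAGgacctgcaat
Downstream exon, exon 20 of NM_015784, 84 bases, chr3:54385671-54385754, plus strand: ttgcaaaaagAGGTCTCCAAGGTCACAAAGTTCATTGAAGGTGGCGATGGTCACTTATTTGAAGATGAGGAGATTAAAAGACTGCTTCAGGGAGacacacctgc

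NM_001198765 holds the upstream exon, NM_015784 the downstream exon and NM_001198766 neither. The table lists no periostin transcript with both, so an RNA that keeps both has no line of its own. As for Fn1, the way reads were divided among the transcripts is not known here, and the shares rest on it. At 3205, 3189 and 3121 bases the 3 are nearly equal in length.

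NM_001198766, without either exon, was the main periostin transcript of osteoblasts and nearly absent from chondrocytes. It stood at 389, 565 and 306 RPKM in the osteoblast libraries and at 1.25, 0.844 and 2.85 RPKM in the chondrocyte libraries. The osteoblast mean was 255-fold higher, at 420 ± 132 against 1.65 ± 1.06 RPKM (SD, n = 3 each), and 402-fold higher without chondrocyte replicate 3. As a share of Postn it was 63.0%, 62.9% and 59.7% in osteoblasts and 0.155%, 0.114% and 0.121% in chondrocytes. The groups did not overlap (exact permutation test, two-sided p = 0.10, the smallest possible). In the fit of transcript shares its log2 ratio to the other Postn transcripts differed by 9.49 ± 0.23 (SE, limma with Benjamini-Hochberg adjusted p = 9.83e-09), the largest difference of the 3051 transcripts tested. The transcript entered this test through its osteoblast share alone, since its chondrocyte share was under the limit of 2%, and its rank is a description. Its adjusted p was 3.83e-08 to 3.93e-06 over 10 alternatives.

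The transcripts that keep 1 exon went the other way. NM_001198765 stood at 112, 148 and 96.2 RPKM in osteoblasts and 443, 401 and 1303 RPKM in chondrocytes, or 17.8% ± 1.20 and 54.9% ± 0.485 of Postn (SD, n = 3 each). NM_015784 stood at 116, 186 and 110 RPKM in osteoblasts and 357, 336 and 1063 RPKM in chondrocytes, or 20.3% ± 1.34 and 45.0% ± 0.503 of Postn. Their log2 ratios in the share fit were -2.48 (limma, Benjamini-Hochberg adjusted p = 1.01e-05) and -1.67 (adjusted p = 9.81e-05). The ratio of the first to the second was 0.959, 0.795 and 0.874 in osteoblasts and 1.24, 1.19 and 1.23 in chondrocytes. As divided in the table, chondrocyte periostin RNA was thus placed almost wholly, at 99.8% to 99.9%, on transcripts with 1 of the 2 exons, against 37.0% to 40.3% in osteoblasts.

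**Figure D3:**
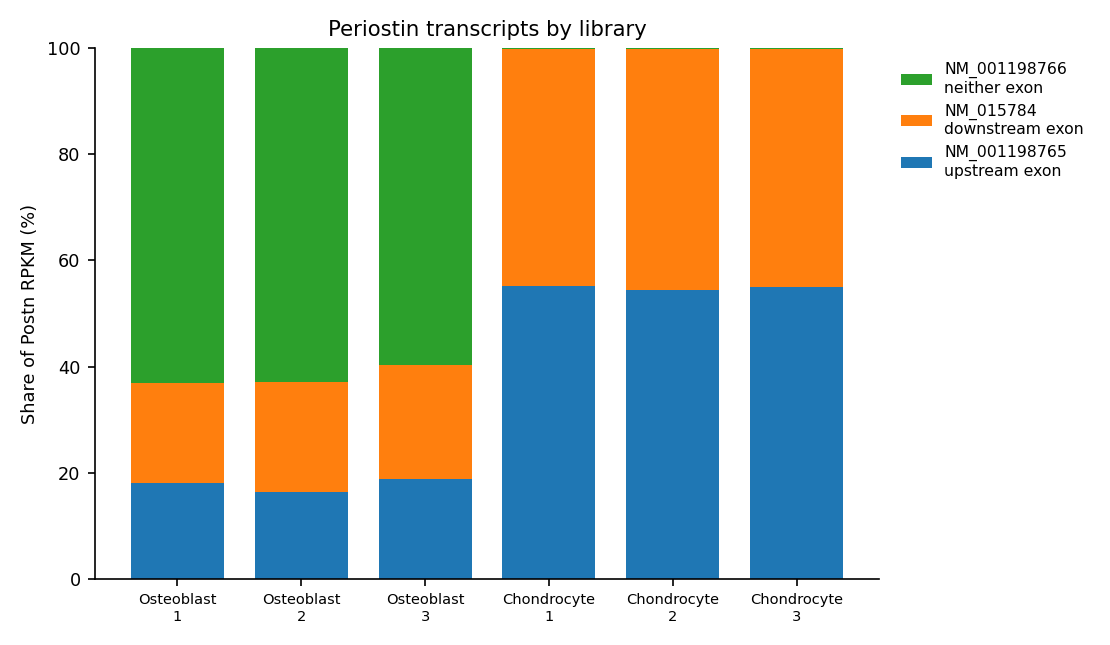
Share of Postn RPKM (%) held by each of its 3 transcripts in each library; colours give the transcript and the alternative exon it keeps. The transcript without either exon holds 59.7% to 63.0% in osteoblasts and 0.114% to 0.155% in chondrocytes, where the other 2 share the rest.

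Tgfbi, a fasciclin-domain protein induced by TGF-beta that binds collagen and integrins, was present in both cell types. NM_009369, its 1 listed transcript, spans chr13:56609586-56639358 on the plus strand of GRCm38 with 17 exons. It stood at 88.8, 87.4 and 52.9 RPKM in osteoblasts and 88.1, 138 and 117 RPKM in chondrocytes. Chondrocyte replicate 1 lay within the osteoblast range, and osteoblast replicate 3 was the lowest library. The means were 76.4 ± 20.3 and 114 ± 25.1 RPKM (SD, n = 3 each), and the log2 difference of -0.59 ± 0.24 (SE) was not called (limma, Benjamini-Hochberg adjusted p = 0.0625). It was called higher in chondrocytes without chondrocyte replicate 1 (-0.77, adjusted p = 0.0348) and under median-of-ratios scaling (-1.10, adjusted p = 0.0105). The fasciclin-domain receptors of macrophages and sinusoidal endothelium were low: Stab1 stood at 2.79 to 2.99 RPKM in osteoblasts and 0.0892 to 0.860 RPKM in chondrocytes, and Stab2 was at most 0.0403 RPKM.

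Chondrocyte replicate 3 moved 3 of the 5 tested genes together. Relative to the mean of chondrocyte replicates 1 and 2 it held 3.47 times the Tnn, 3.08 times the Postn and 2.40 times the Tnc RNA, but 0.729 times the Fn1 and 1.04 times the Tgfbi RNA. The untested Tnxb, under 1 RPKM in every library, stood at 2.47 times that mean. The median over all tested genes was 1.10, and 99.0%, 98.6% and 97.0% of them had smaller ratios than Tnn, Postn and Tnc. Tendon and fibroblast markers moved with these genes: 9 of 12 were highest among chondrocyte libraries in replicate 3, while Fap, Ly6a and Pi16 were not. The 12 summed to 947, 662 and 2661 RPKM in chondrocyte replicates 1 to 3, mostly Col3a1 (645, 498 and 1907 RPKM). Tnmd, a membrane protein of tendon, stood there at 106, 52.3 and 341 RPKM, Scx, the tendon transcription factor, at 17.3, 11.5 and 37.4 RPKM, while Pi16, a fibroblast marker, was at most 0.0794 RPKM in chondrocytes. Myeloid and osteoclast markers moved too, with 8 of 9 highest in replicate 3 and a sum of 2.96 times that of the others. The sum was mostly Ctsk, at 56.6, 45.0 and 162 RPKM in chondrocyte replicates 1 to 3, with Ptprc at most 0.175 RPKM. All 6 endothelial markers were also highest in replicate 3, with a sum of 2.09 times that of the others and Pecam1 at 1.15, 0.872 and 2.17 RPKM. The part of such cells in the levels of that library was not tested. How many of all tested genes were highest in replicate 3 was not counted, so these counts have no background beside them. Of genes that tie integrins to actin 13 of 16 were also highest there, as were 13 of 18 matrix partners and 6 of 14 integrin and syndecan genes. The transcript shares of replicate 3 lay near those of the other chondrocyte libraries. Replicate 3 held 1599 RPKM more Postn than the mean of chondrocyte replicates 1 and 2, of which 1.81 RPKM was NM_001198766. Its Fn1 share of EDA without EDB, 1.55%, lay between those of chondrocyte replicates 1 and 2.

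**Figure D4:**
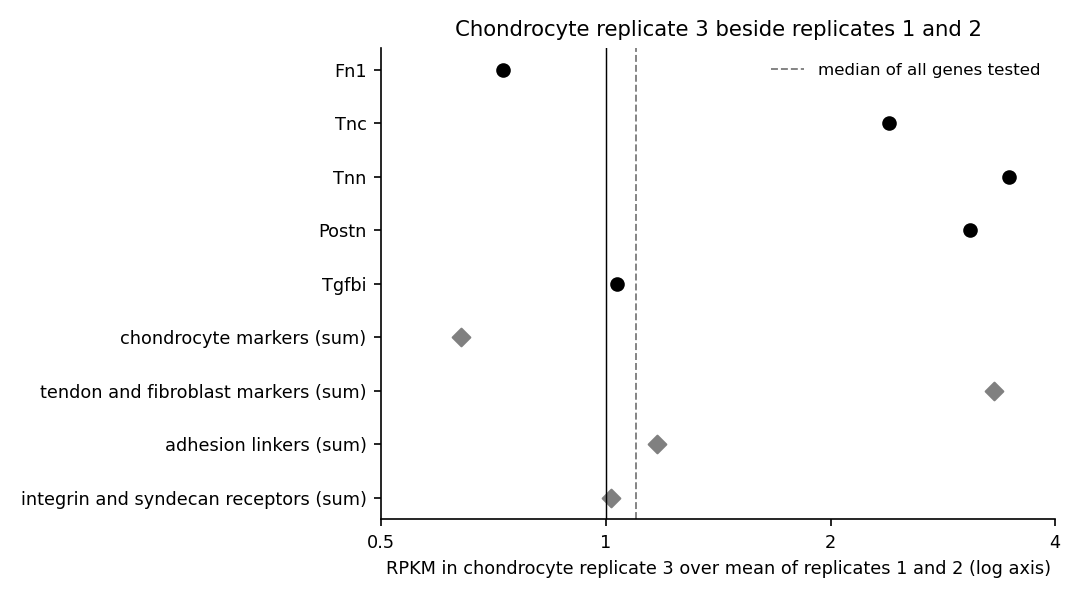
RPKM in chondrocyte replicate 3 divided by the mean of chondrocyte replicates 1 and 2 (log axis), for the 5 tested genes (black) and for the summed levels of 4 gene lists (grey diamonds); the dashed line is the median of all tested genes, 1.10. Tnn, Postn and Tnc lie at 2.40 to 3.47 with the tendon and fibroblast markers (mostly Col3a1) at 3.31. Fn1 lies at 0.729 near the chondrocyte markers (mostly Col2a1) at 0.639. Lists not drawn include osteoblast markers (3.41, mostly Col1a1), myeloid and osteoclast markers (2.96) and matrix partners (2.52) in the same range. Mural and skeletal muscle markers, also not drawn, were at 0.772 and 0.775.

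Between the cell types, tendon and fibroblast markers also differed beside Tnc and Tnn. Their sum was 2157 to 3029 RPKM in osteoblasts and 662 to 2661 RPKM in chondrocytes, mostly Col3a1. Of 11 tested 8 were called higher in osteoblasts, 2 (Tnmd and Thbs4) higher in chondrocytes and 1 not called. For this list and those that follow, the share over all genes is 55.5% higher in osteoblasts and 13.5% in chondrocytes. Of 9 myeloid and osteoclast markers 8 were tested, and 7 were higher in osteoblasts and Cd14 in chondrocytes. Their sum was 221 to 236 and 52.2 to 176 RPKM, mostly Ctsk (196 to 205 and 45.0 to 162 RPKM), and Ptprc, the marker of all white blood cells, was at most 0.345 RPKM. Mural and smooth muscle markers summed to 152 to 196 and 75.4 to 114 RPKM, with 2 of 4 tested higher in osteoblasts and 1 in chondrocytes. These sums were mostly Acta2 in osteoblasts (115 to 154 RPKM) and Cspg4 in chondrocytes (68.7 to 111 RPKM). Myh11 and Des were under 1 RPKM in every library. Endothelial markers summed to at most 5.83 RPKM and skeletal muscle markers to at most 0.313 RPKM. Under median-of-ratios scaling Scx, Mkx, Col3a1 and Ctsk lost their osteoblast calls (limma, Benjamini-Hochberg adjusted p = 0.0526, 0.305, 0.0864 and 0.0918). The other calls of these lists were kept. The largest called differences among tendon and fibroblast markers were those of Thbs4 (-5.28), Dpt (4.43) and Cd34 (3.44). Dpt, Cd68, Emr1, Mmp9 and Cnn1 of these lists were under 1 RPKM in every chondrocyte library. They entered the test through the osteoblast libraries alone. The part of these cells in the levels of Tnc, Tnn, Fn1, Postn and Tgfbi was not tested.

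Most tested receptors of these proteins were called higher in osteoblasts, as were most genes. Of 14 integrin and syndecan genes 10 were tested: 7 were called higher in osteoblasts, 1 higher in chondrocytes and 2 not called. Over all tested genes 55.5% were called higher in osteoblasts and 13.5% in chondrocytes, so these counts lie not far from the background. The median log2 difference was 1.03, against 0.43 over all tested genes. Itgb1, the shared β1 chain, stood at 174 ± 7.44 against 64.7 ± 15.4 RPKM (log2 difference 1.44), and Itga5, its partner in the main fibronectin receptor, at 30.0 ± 2.59 against 13.9 ± 3.50 RPKM (1.08). The αv receptors went the same way, with Itgav at 22.7 against 11.0 RPKM (0.99), Itgb5 at 175 ± 21.9 against 53.6 ± 3.87 RPKM (1.69) and Itgb3 at 5.82 against 0.881 RPKM (1.85). Itga8, whose integrin binds fibronectin and tenascins, stood at 4.85 against 0.783 RPKM (1.71). The largest of these log2 differences was on the other side: Sdc4, a syndecan that helps integrin α5β1 hold fibronectin, was 8.46-fold higher in chondrocytes, at 239 ± 66.0 against 28.3 ± 1.16 RPKM (-3.00 ± 0.19 SE, limma with Benjamini-Hochberg adjusted p = 1.42e-05). Sdc2 was higher in osteoblasts (0.92) and Sdc1 was not called (0.58). Under median-of-ratios scaling 7 were again called higher in osteoblasts and 1 in chondrocytes. Itga5 then stood near the limit (0.59, limma with Benjamini-Hochberg adjusted p = 0.0497).

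Receptors that bind the spliced segments were low or not called. Itga9, which binds EDA and tenascin-C, stood at 10.7, 10.1 and 8.62 RPKM in osteoblasts and 8.30, 5.99 and 10.9 RPKM in chondrocytes and was not called (limma, Benjamini-Hochberg adjusted p = 0.317). With median-of-ratios scaling Itga9 took the opposite sign (-0.23). Without chondrocyte replicate 3 Itga9 and Sdc1 were both called higher in osteoblasts (adjusted p = 0.0488 and 0.00584). Itga4, which binds CS1 and EDA, was at most 0.166 RPKM in any library. Itga4, Itgb6, Itgb7 and Itgb8 did not pass the filter.

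Among proteins that tie integrins to actin, Vcl differed most. Of 16 genes 14 were tested, 11 were called higher in osteoblasts, 1 (Bcar1) higher in chondrocytes, and Pxn and Tns1 were not called, beside 55.5% and 13.5% over all genes. Leaving out chondrocyte replicate 3 brought a call for Tns1, on the osteoblast side (adjusted p = 0.0286, limma). The list's median log2 difference of 0.60 was close to the 0.43 of all genes, and under median-of-ratios scaling 6 were called higher and 2 lower, and Ptk2 and Zyx turned sign. The call of Bcar1 (-0.33) was lost without the filter on low values and when any library other than chondrocyte replicate 2 was left out (limma, Benjamini-Hochberg adjusted p = 0.116 without chondrocyte replicate 3). Vcl, vinculin, stood at 70.4 ± 3.39 against 9.30 ± 1.82 RPKM (2.81), Parvb at 5.04 against 0.215 RPKM (2.31) and the talin Tln2 at 5.03 against 0.856 RPKM (1.70).

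Matrix partners of these proteins differed in both directions. Of 18 listed 16 were tested, 11 were higher in osteoblasts, 3 higher in chondrocytes (Acan, Ccdc80 and Fbn1), and Col6a1 and Dcn were not called, beside 55.5% higher in osteoblasts and 13.5% in chondrocytes over all genes. The median log2 difference was 1.60, against 0.43 over all genes. The fibulins Fbln2 and Fbln1, which bind fibronectin, stood at 74.4 against 4.20 RPKM (3.97) and 70.8 against 5.17 RPKM (3.54). Acan, the cartilage proteoglycan whose family binds tenascins, differed by -4.35. The call of Fbn1 was lost without chondrocyte replicate 3 (limma, Benjamini-Hochberg adjusted p = 0.0726). Under median-of-ratios scaling Col6a2 lost its osteoblast call (0.27, adjusted p = 0.300, limma). The uncalled Col6a1 and Dcn turned sign (-0.32 and -0.22).

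**Figure D5:**
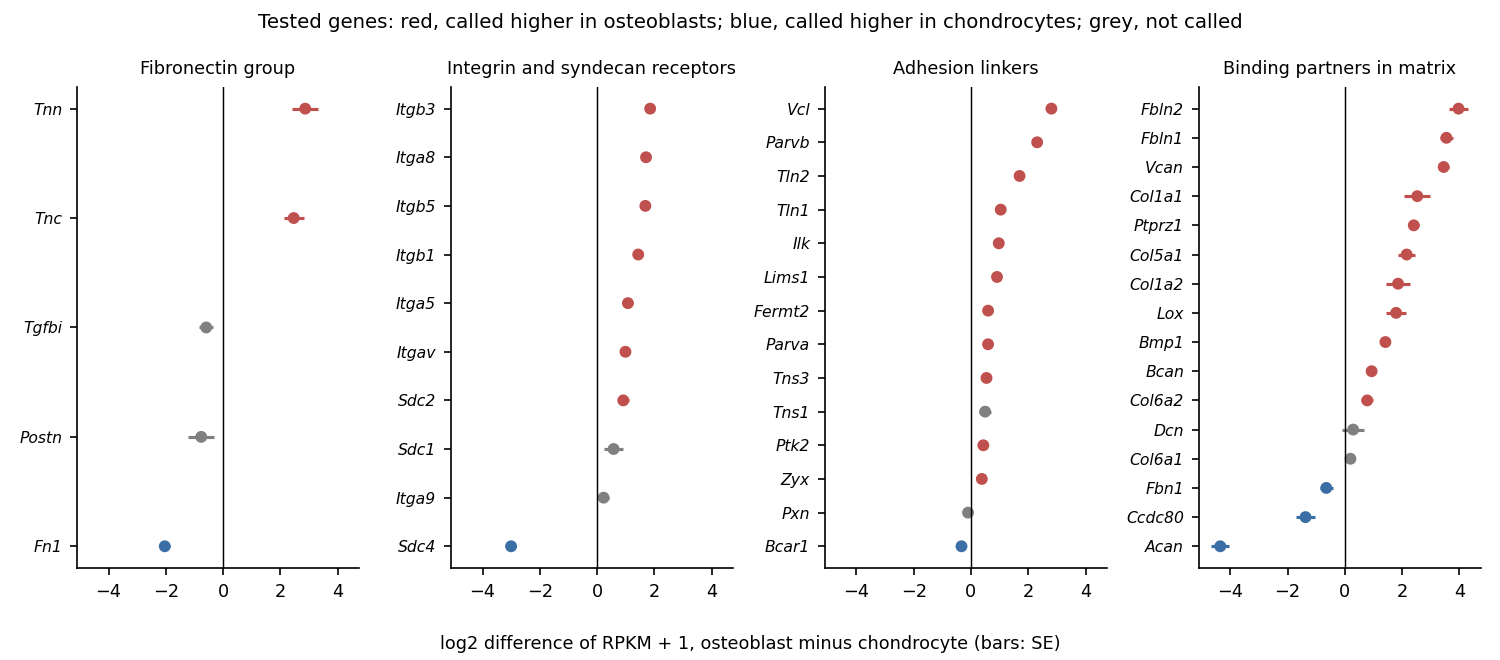
Log2 differences of RPKM + 1 (osteoblast minus chondrocyte, bars giving the SE) for the tested genes of the fibronectin group, their receptors, adhesion linkers and matrix partners; red and blue mark genes called higher in osteoblasts and in chondrocytes, grey those not called. Sdc4 at -3.00 stands opposite to the integrins, as Fn1 at -2.04 does to Tnc and Tnn.

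For each tested gene the nearest others were sought by the root mean square distance of log2(RPKM + 1) over the 6 libraries, among 11218 genes. Tnn was nearest to Thbs2 (0.42), Col5a2 (0.46) and Pcolce (0.49). Tnc was nearest to Tmsb10 (0.43), Tpm1 (0.44) and Igfbp4 (0.47), and Fn1 to Mgp (0.47), the matrix Gla protein, at 288 RPKM in osteoblasts and 1798 in chondrocytes. Tgfbi was nearest to Tmed3 (0.32), Tspan3 (0.32) and Mrc2 (0.34). Postn had 1 gene within 0.5, Gnas (0.47), which also was the second nearest of Fn1 (0.82). These distances describe likeness of level over 6 libraries of 2 cell types and carry no test.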

How the data were processed

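RNA-seq of 3 osteoblast and 3 chondrocyte libraries was used as the authors deposited it, in 1 table of RPKM per RefSeq transcript, whose lowest value is 0.0001. Per the submitters' processing notes, TopHat2 2.0.8 and the build mm9 were used; a counting program is not named there. Its 6 value columns carry the sample names. Transcripts of a symbol were added up. The 11218 genes that reached 1 RPKM in 3 or more libraries entered limma 3.58.1 (R 4.3.3), fitted to log2(RPKM + 1) with trend and robust moderation, two-sided, Benjamini-Hochberg adjusted; fold values are ratios of mean RPKM. A gene near 0 in 1 cell type passes this filter through the other alone. Transcript shares were compared by exact permutation and, added after seeing the data, by limma on log2((transcript + 1)/(other transcripts + 1)). Both fits were tested on simulated data. Reads were estimated from the steps of low RPKM values and GENCODE M21 lengths in genes with 1 transcript; of values between 0.5 and 20 reads, 51.2% to 59.6% lay no more than 0.05 from a whole read, where chance gives 10%. This depth covers counting error only. The genes and lists were chosen with earlier results of these data known. Named were the 7 genes, tested receptors, and per other list the 3 largest called differences without overlap, besides genes that complete small counts. Deviations from group means correlated at 0.08, 0.01 and -0.16 between same-numbered libraries. This gave no sign of pairing by number, which 3 libraries a group cannot exclude. Alternatives were other pseudocounts (0.1 and 5), filters and scalings, moderation, library weights, a replicate block, 1 transcript per gene and each library left out.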

Additional observations from a re-analysis of the deposited data

How the results depend on the processing

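Fn1, Tnc and Tnn kept their direction and their call in all 17 alternatives, with log2 differences of -2.55 to -1.83, 1.96 to 2.91 and 2.36 to 3.46. With the replicate number as a block all 3 were called, with adjusted p up to 0.00460 (limma, Benjamini-Hochberg), and 7268 genes in all; no call among the 7 genes or their 9 transcripts changed under it, while Bcar1 lost its call. Postn and Tgfbi kept their direction in 17 of 17 but gained a call in 3 and 4. Postn was called under median-of-ratios scaling (-1.28), upper quartile scaling (-1.22) and on its transcript of highest mean RPKM (-2.39). That transcript was NM_001198765, which held 17.8% of Postn RPKM in osteoblasts and 54.9% in chondrocytes. The -2.39 is therefore a difference of 1 transcript and not of the summed Postn level. Tgfbi was called under median-of-ratios (-1.10) and upper quartile scaling (-1.04), under scaling to total RPKM without the 20 most abundant genes (-0.99), and without chondrocyte replicate 1, with -0.77 to -0.35 over the left-out libraries. Over all genes, a mean RPKM of at least 5 left 4977 calls (4092 higher in osteoblasts and 885 in chondrocytes) of 6911 tested. Calls higher in osteoblasts and in chondrocytes were 3405 and 3478 under median-of-ratios, 3706 and 3184 under upper quartile and 3940 and 2967 under total RPKM scaling. In the fit of transcript shares 87 of 90 values kept direction and call; the uncalled NM_001276410 turned sign with left-out libraries, between -0.024 and 0.106. Each of the 60 differences of share with a library left out moved by less than 1 SD, here the root mean square of the 2 group SDs; some moved by more than the smaller group SD, and that of NM_010233 fell from 4.63 to 2.70 percentage points without chondrocyte replicate 2. That of NM_001276410 also changed sign. The cause of these changes was not tested. Because the table holds no counts, values under about 3 reads, as for Tnr in chondrocytes, carry no direction.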
